A study of Homo sapiens with 9 samples.

Results

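The genes described here are 41 genes of the response to low oxygen and of glycolysis, taken by gene symbol from a table of 56809 genes, and each of the 41 symbols was found once. They were kept as 2 lists. The first held 26 target genes of the hypoxia-inducible factors (HIF), such as CA9 and VEGFA. The second held the 15 glycolytic enzymes from hexokinase to lactate dehydrogenase. Abundance was measured by bulk RNA sequencing in 9 libraries of MDA-MB-468, an established human breast adenocarcinoma line. Control cells carried the empty lentiviral hairpin vector pSicoR, and the other cells carried 1 of 2 short hairpin RNAs named for the gene LMO2, shLMO2-1 or shLMO2-2, giving 3 groups of 3 libraries. All groups had therefore been infected with a vector, and the labels state no uninfected cells, no oxygen level and no time after infection. Whether the 3 libraries of a group came from separate cultures is not stated, so p-values measure the spread between these libraries, which may be technical.

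Cells sense oxygen through prolyl hydroxylases of the EGLN family, which mark the HIF alpha subunits for degradation by the VHL ubiquitin ligase. When oxygen is scarce the alpha subunits persist, pair with ARNT and bind promoters and enhancers at a short motif with the core ACGTG or GCGTG. Their targets export acid, recruit vessels, bring in glucose and raise glycolytic enzymes, and in breast tumours CA9 is widely used as a tissue marker of hypoxia. Glycolysis itself splits glucose into pyruvate, and its enzymes are among the most abundant in proliferating cells; many of them answer to HIF but also to MYC and to growth signals.

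Promoters are shown first for the 4 genes that passed the test, all higher, with each hairpin against the shared controls. Each is the 250 bases before 1 RefSeq start of the gene, the first listed (build GRCh38.p14, plus strand, read 5′ to 3′). Other starts of a gene were not read. The GAPDH window lies wholly within the GENCODE span of the gene (6533927 to 6538374), so it precedes a start inside the gene. The other windows also end inside the GENCODE spans, which begin at 35673856 for CA9, 72273920 for DDIT4 and 18394388 for LDHA. Capitals mark ACGTG or GCGTG on either strand, so that CACGT and CACGC are the same motifs read from the other strand. CA9 was read from chr9:35673678-35673927, DDIT4 from chr10:72273674-72273923, GAPDH from chr12:6535014-6535263 and LDHA from chr11:18394313-18394562.
CA9: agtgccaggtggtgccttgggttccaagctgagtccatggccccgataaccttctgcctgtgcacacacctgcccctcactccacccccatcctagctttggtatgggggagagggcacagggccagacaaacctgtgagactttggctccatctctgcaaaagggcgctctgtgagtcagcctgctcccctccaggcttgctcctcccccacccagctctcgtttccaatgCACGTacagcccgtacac
DDIT4: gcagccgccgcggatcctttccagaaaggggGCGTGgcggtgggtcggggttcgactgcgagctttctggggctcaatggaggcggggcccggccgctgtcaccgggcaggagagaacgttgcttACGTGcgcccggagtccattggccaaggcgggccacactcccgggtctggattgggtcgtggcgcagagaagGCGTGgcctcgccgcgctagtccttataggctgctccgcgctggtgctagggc
GAPDH: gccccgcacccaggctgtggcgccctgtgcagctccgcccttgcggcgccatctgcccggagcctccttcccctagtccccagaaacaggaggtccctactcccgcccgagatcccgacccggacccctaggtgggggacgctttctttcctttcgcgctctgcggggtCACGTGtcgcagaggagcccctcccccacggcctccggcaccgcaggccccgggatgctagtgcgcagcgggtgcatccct
LDHA: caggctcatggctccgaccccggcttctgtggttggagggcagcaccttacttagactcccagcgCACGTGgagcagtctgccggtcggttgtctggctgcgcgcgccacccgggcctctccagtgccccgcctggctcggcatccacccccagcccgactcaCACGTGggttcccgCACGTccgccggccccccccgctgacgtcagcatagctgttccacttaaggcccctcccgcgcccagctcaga
The single match of CA9 began 18 bases before the start, and LDHA held 3 separate stretches with the motif. The CA9 match and all but the first LDHA stretch lie inside the GENCODE spans of these genes. RefSeq sequences were matched for 36 of the 41 genes, all but VEGFA, NDRG1, BNIP3L, SLC2A3 and HILPDA. ACGTG was present on either strand in 9 of 21 HIF target promoters (42.9%) and in 8 of 15 glycolytic promoters (53.3%), against 6501 of 35114 promoters of the same length (18.5%). GCGTG was present in 11 of 21 (52.4%) and 5 of 15 (33.3%), against 32.2% of all. CACGTG contains ACGTG on both strands and was counted as both. Each of the 36 genes entered these counts with 1 promoter, while the 35114 were all promoters listed. The windows of TPI1 and HK1, the other enzymes that passed the test in at least 1 comparison, held neither motif. A match describes the letters only.

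LMO2, the gene for which the hairpins are named, was scarce in every library. Its counts were 4, 35 and 19 in the controls, 2, 1 and 6 with shLMO2-1, and 1, 4 and 3 with shLMO2-2, so control replicate 1 overlapped the hairpin libraries. The log2 fold change was -2.44 for shLMO2-1 (adjusted p = 0.0907), -3.02 for shLMO2-2 (adjusted p = 0.0441) and -2.73 for the mean of both (adjusted p = 0.0216). Leaving out control replicate 2 (log2 -2.32) or 3, shLMO2-1 replicate 1 or 2, or any shLMO2-2 library ended the shLMO2-2 call (adjusted p 0.062 to 0.138). The mean call ended without control replicate 2 or 3 or shLMO2-1 replicate 2 (0.052 to 0.113), and the shLMO2-1 comparison was called without control replicate 1 (0.0268). An exact two-sided permutation test was run on the log2 of scaled counts per 1e6 plus 0.1. Its p was 0.2 for shLMO2-1 and 0.1 for shLMO2-2, where 0.1 is the smallest p that 3 against 3 allows. Library totals ran from 15494486 to 23069456 counts. All 9 epithelial markers were detected in all libraries, with summed levels of 14023 to 14846 CPM (counts per 1e6 on totals scaled by TMM factors) in the controls, 16135 to 17249 with shLMO2-1 and 15626 to 17634 with shLMO2-2. In the mean of both hairpins 4 of the 9 were called, all higher (KRT8, KRT18, KRT19 and EGFR). This was 44.4%, against 12.4% of all genes called and 6.47% called higher. CDH1 was lower in all 6 hairpin libraries than in any control but not called (log2 -0.12, adjusted p = 0.106). With shLMO2-1 alone 2 of the 9 were called higher and 1 lower (33.3%, against 8.42% of all genes called). KRT5 averaged 3203 CPM in the controls, 2648 with shLMO2-1 and 3380 with shLMO2-2. Of the 3 luminal receptor markers, PGR was at 0 in all libraries. ESR1 was low (2.47 to 6.1 CPM), and all 6 hairpin libraries were below all controls, as for 8.59% of all genes. In the mean of both hairpins 1 of the 2 receptors tested was called lower (50%, against 5.93%). Of the 4 leukocyte markers reported, CD3E and LYZ were at 0 in all libraries, and CD14, the 1 abundant enough to test, rose by 1.21 on the log2 scale with each hairpin. The summed level of the 4 was 0.899 to 1.5 CPM in the controls, 1.99 to 3.69 with shLMO2-1 and 2.74 to 2.88 with shLMO2-2. The part of these marker differences in the results that follow was not tested.

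Most HIF target genes did not pass the test, and those that did moved in both directions. A gene was called changed when its adjusted p was under 0.05 in edgeR's quasi-likelihood test with Benjamini-Hochberg adjustment over 14709 genes. In the mean of both hairpins against the control, 4 of the 25 HIF targets tested were called (16%), where 12.4% of all genes tested were: CA9, DDIT4 and NDRG1 rose and VEGFA fell. With shLMO2-1 alone 3 of 25 were called (CA9, DDIT4 and VEGFA; 12%, against 8.42% of all genes), and with shLMO2-2 alone 2 of 25 (CA9 and DDIT4; 8%, against 8.97%). Both hairpin comparisons use the same 3 controls, so they are set side by side and not counted as separate support. The median log2 fold change of the 25 was 0.05 with shLMO2-1 and 0.07 with shLMO2-2, where the median of all genes was 0.001 and 0.00, and 16 of 25 had a positive mean change. The mean count was 2 without control replicate 2 or control replicate 3. The shLMO2-1 count was 1 without control replicate 3 or shLMO2-1 replicate 2, and the shLMO2-2 count was 1 without any 1 of its own libraries; CA9 was called in each. In bulk RNA, fewer cells that express a gene and less RNA per cell cannot be told apart.

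**Figure D1:**
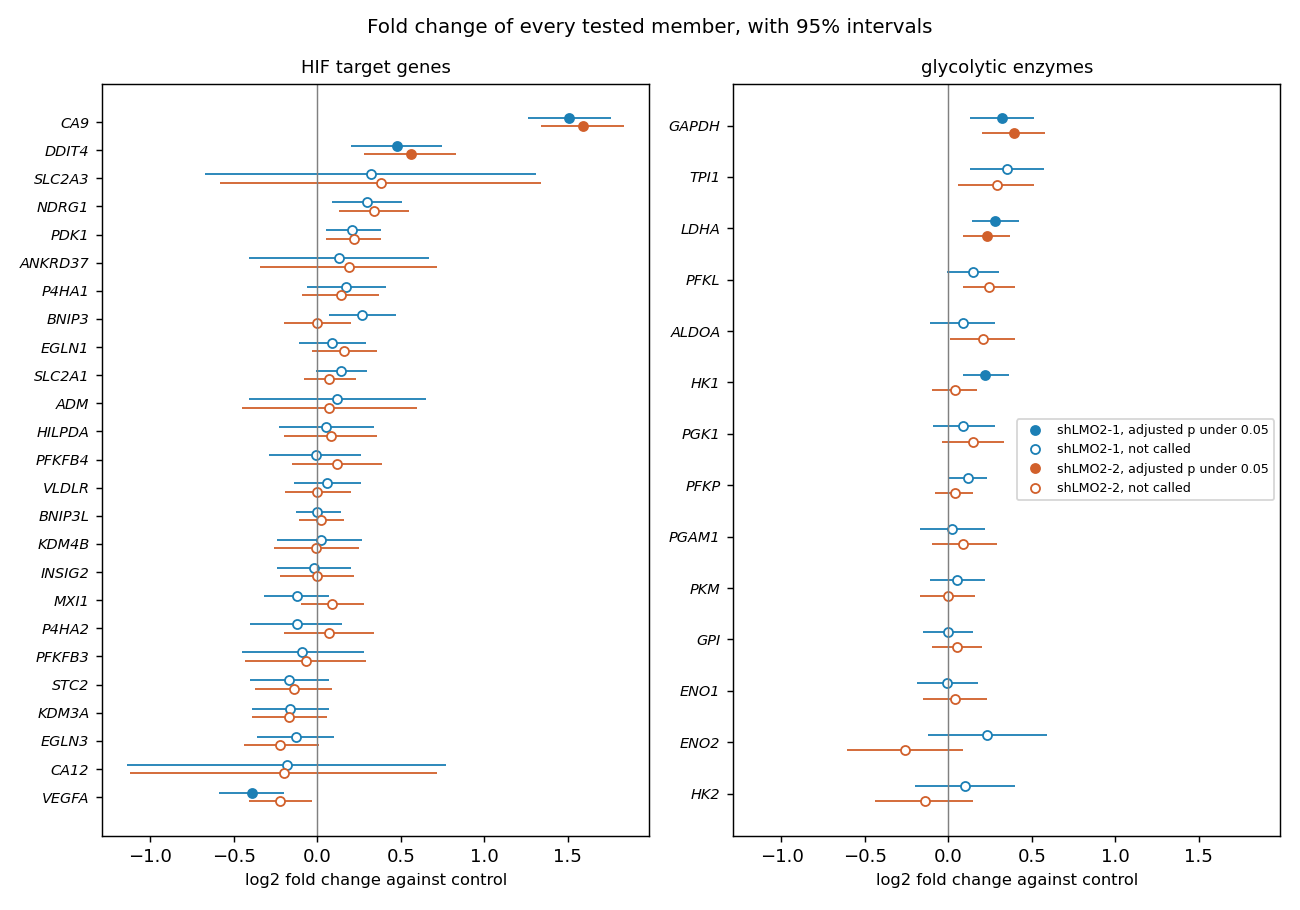
Log2 fold change against control for each of the 39 genes tested, with shLMO2-1 in blue, shLMO2-2 in orange and lines for 95% intervals; filled points have an adjusted p under 0.05. CA9 stands to the right of every other gene at 1.51 and 1.59, and most other intervals cross 0.

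CA9, a membrane carbonic anhydrase that acidifies the outside of the cell (chromosome 9, 35673856 to 35681159, plus strand, GRCh38), had the largest change of the 39 genes tested. Its level was 7.13, 7.28 and 8.78 CPM in the controls, 20.6, 22.9 and 22.9 with shLMO2-1, and 21.7, 23.3 and 24.9 with shLMO2-2. All 6 hairpin libraries lay far above all 3 controls, and the hairpin groups overlapped each other. CA9 was 2.86-fold higher with shLMO2-1 (log2 1.51, SE 0.114, adjusted p = 4.53e-05) and 3.01-fold higher with shLMO2-2 (log2 1.59, SE 0.112, adjusted p = 2.68e-05). The difference between the hairpins was 0.08 on the log2 scale, with a 95% interval from -0.16 to 0.31. The call was kept in every alternative, with log2 values of 1.45 to 1.65 for the mean of both hairpins. Some CA9 exon bases also belong to ARHGEF39, which stood at 17.1 ± 2.95 CPM in the controls, 18.1 ± 0.381 with shLMO2-1 and 20.1 ± 1.73 with shLMO2-2 (SD, n = 3 each; adjusted p = 0.396 for the mean of both hairpins).

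CA12, the other HIF-responsive membrane carbonic anhydrase on the list, was scarce and did not pass the test. It averaged 0.739 CPM in the controls, 0.657 with shLMO2-1 and 0.641 with shLMO2-2. CA2, a cytosolic carbonic anhydrase and not among the 41 genes, moved the opposite way to CA9. Its counts were 199, 237 and 231 in the controls, 21, 27 and 18 with shLMO2-1, and 11, 24 and 12 with shLMO2-2. No hairpin library came near a control. CA2 was 9.04-fold lower with shLMO2-1 (log2 -3.18, SE 0.252, adjusted p = 6.66e-05) and 16.8-fold lower with shLMO2-2 (log2 -4.07, SE 0.265, adjusted p = 2.01e-05). Of 13 further carbonic anhydrases looked up, 4 were abundant enough to test, and CA2 alone was called in the mean of both hairpins (1 of 4, where 12.4% of all genes tested were).

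**Figure D2:**
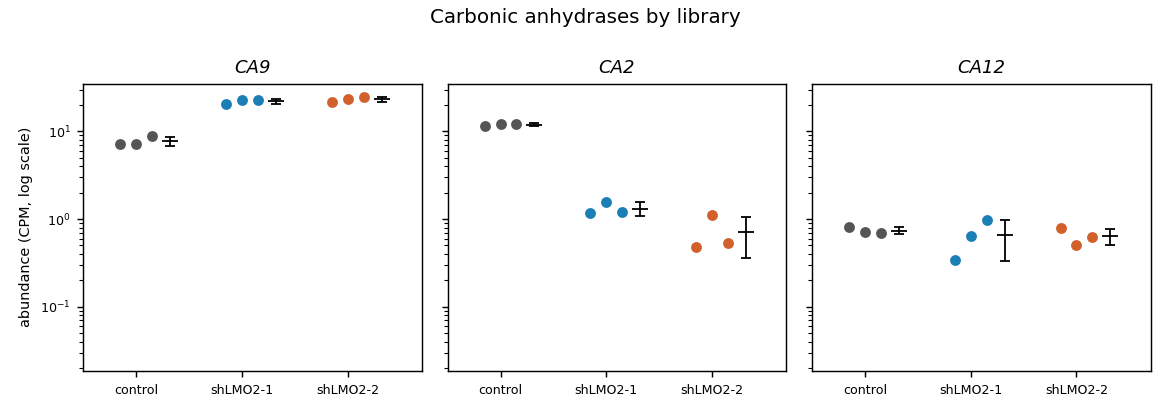
CPM on a log axis for CA9, CA2 and CA12 in each library, with the group mean and SD (n = 3) beside the points. CA9 rises from a mean of 7.73 to 22.1 and 23.3 CPM, CA2 drops in all 6 hairpin libraries, and CA12 stays under 1 CPM.

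Among the secreted signals, VEGFA, the main growth factor for vessels (chromosome 6, 43770184 to 43786487, plus strand), was the only HIF target called lower. Its level was 90.1, 88 and 86 CPM in the controls, 73.3, 57.2 and 70.6 with shLMO2-1, and 75.7, 78 and 73.5 with shLMO2-2. Every hairpin library was below every control. The log2 fold change was -0.39 with shLMO2-1 (adjusted p = 0.0207) and -0.22 with shLMO2-2 (adjusted p = 0.147), and -0.30 for the mean of both (95% interval -0.47 to -0.14, adjusted p = 0.0235). Leaving out control replicate 2 (adjusted p = 0.0562), control replicate 3 (0.0665) or shLMO2-2 replicate 3 (0.0502) ended the mean call. The shLMO2-1 call ended without control replicate 3 (0.0548) or its own replicate 2 (0.0547), and when only the groups compared were fitted (0.0568). ADM, a vasodilator peptide, was variable within every group, at 26.4 ± 6.8 CPM in the controls, 28.8 ± 7.6 with shLMO2-1 and 27.8 ± 6.51 with shLMO2-2 (SD, n = 3, the order used from here on). Its spread followed the replicate number. ADM was at 18.7, 20.2 and 20.8 CPM in replicate 1 of the groups, 29.2, 31.3 and 29 in replicate 2, and 31.4, 34.8 and 33.7 in replicate 3. The main fit has no replicate term. STC2, a secreted glycoprotein of the stress response, was at 58.9 ± 7.44, 52.5 ± 6.11 and 53.5 ± 2.18 CPM and did not pass.

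DDIT4, an inhibitor of the growth kinase complex mTORC1 (chromosome 10, 72273920 to 72276036, plus strand), rose with both hairpins. It was at 80.8, 120 and 112 CPM in the controls, 144, 133 and 158 with shLMO2-1, and 152, 148 and 160 with shLMO2-2. All hairpin libraries were above all controls, the hairpin groups overlapped each other, and control replicate 1 was well below its fellow controls. DDIT4 changed by 0.48 on the log2 scale (SE 0.125, adjusted p = 0.0395) and 0.56 (SE 0.125, adjusted p = 0.0214), and 0.52 for the mean of both (SE 0.11, adjusted p = 0.0131). Without control replicate 1 the mean was 0.36 (adjusted p = 0.0102). The mean call was kept in every alternative at 0.05; the single-hairpin calls were lost when any 1 library of that hairpin was left out (adjusted p 0.0687 to 0.132 for shLMO2-1 and 0.0557 to 0.0785 for shLMO2-2). For shLMO2-1 this also held without control replicate 3 (0.0736) or any shLMO2-2 library (0.0562 to 0.0645), and when only the groups compared were fitted (0.0886).

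NDRG1, a stress-induced cytoplasmic protein long used as a marker of hypoxia, was called by edgeR only in the mean of both hairpins. It was at 17.4, 16.8 and 18.9 CPM in the controls, 22.2, 21.6 and 21.6 with shLMO2-1, and 21.6, 24.7 and 20.8 with shLMO2-2. All 6 hairpin libraries were above all controls, as they were for 8.12% of all genes tested. Its mean log2 fold change was 0.32 (SE 0.084, adjusted p = 0.0315), and the call was lost without any 1 control library (adjusted p 0.0557 to 0.0978), any shLMO2-1 library (0.057 to 0.065), shLMO2-2 replicate 1 (0.0508) or shLMO2-2 replicate 2 (0.0688). The mean call was also lost with library totals alone (0.0597), while the shLMO2-2 comparison was called by DESeq2 (0.032) and with a replicate block (0.0344). BNIP3 and BNIP3L, which mark mitochondria for removal, were not called; BNIP3 was at 40.5 ± 4.39, 48.9 ± 1.77 and 40.4 ± 2.76 CPM (SD, n = 3) and BNIP3L at 102 ± 4.22, 102 ± 0.835 and 104 ± 4.78. MXI1, an antagonist of MYC, had a mean log2 fold change of -0.02. ANKRD37, an ankyrin-repeat protein, stood near 2.5 CPM in the controls, and its interval ran from -0.30 to 0.63.

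The oxygen-sensing genes and the chromatin enzymes on the list were not called. EGLN1, the main HIF prolyl hydroxylase, was at 82.5 ± 7.9, 87.9 ± 7.5 and 92.5 ± 5.37 CPM. EGLN3, a related hydroxylase that is itself a HIF target, was at 101 ± 10.1, 92.5 ± 11.6 and 87 ± 6.2 CPM. The histone demethylase KDM3A was at 43.2 ± 2.83, 38.7 ± 0.738 and 38.5 ± 5.53 CPM, and KDM4B had a mean log2 fold change of 0.01 (95% interval -0.22 to 0.23). P4HA1 and P4HA2, collagen prolyl hydroxylases, had 0.16 and -0.03.

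Genes of glucose uptake and of glycolytic control gave small values. SLC2A1, the more abundant of the glucose transporters listed (58 CPM per kb against 0.181 for SLC2A3 in the controls), was at 213 ± 12.1, 235 ± 10 and 224 ± 16 CPM and did not pass (log2 0.11, 95% interval -0.03 to 0.24). PDK1, which holds pyruvate back from the mitochondria, was at 51.4, 52.9 and 45.3 CPM in the controls, 60.4, 57.4 and 55.5 with shLMO2-1, and 56.4, 58.3 and 59 with shLMO2-2. Its hairpin libraries were all above its controls, but its adjusted p was 0.0558 (log2 0.21). It was called by DESeq2 (0.0342) and with a replicate block (0.0328), and not with GC and length trends removed (0.107). The regulators PFKFB3 and PFKFB4, which set the level of the activator of phosphofructokinase, had log2 fold changes of -0.08 and 0.05. The lipid genes HILPDA, INSIG2 and VLDLR lay between -0.01 and 0.07. ANGPTL4, a secreted inhibitor of lipoprotein lipase, had 0 to 4 counts per library and was not tested.

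**Figure D3:**
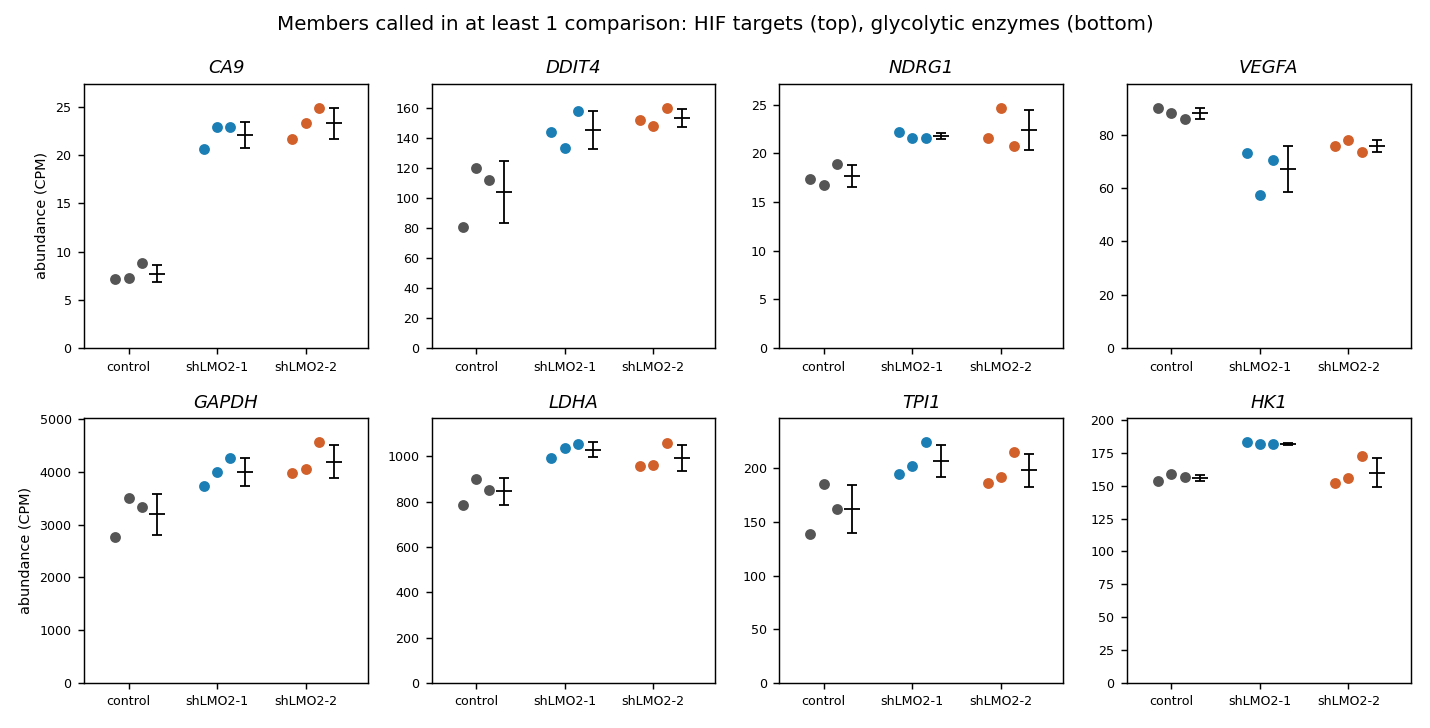
CPM in each library for the 8 genes called in at least 1 comparison with control, with HIF targets in the upper panels and glycolytic enzymes in the lower ones; bars give the mean and SD (n = 3), and every axis starts at 0. For CA9 the controls are far below both hairpin groups, while the other changes are small against the level, and HK1 is higher with shLMO2-1 at 182 to 183 CPM.

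The glycolytic enzymes gave mostly small positive values. At most 3 of the 14 tested were called in each single comparison, and 4 in at least 1 of them. The share of all genes called in at least 1 comparison was not counted, so the 4 are not read as a result. In the mean of both hairpins 3 of 14 were called, all higher (TPI1, GAPDH and LDHA). This was 21.4%, against 12.4% of all genes called and 6.47% called higher. With shLMO2-1 alone the 3 were HK1, GAPDH and LDHA (21.4%, against 8.42% of all genes called and 4.54% called higher). With shLMO2-2 alone 2 were called, GAPDH and LDHA (14.3%, against 8.97% called and 4.94% called higher). The median log2 fold change of the 14 was 0.11 and 0.07 for shLMO2-1 and shLMO2-2, and 12 of 14 had a positive mean change, from -0.02 to 0.36. GAPDH, LDHA, CA9 and DDIT4 were the 4 genes of the 39 called higher with each hairpin, a pattern found for 2.6% of all genes tested. The enzyme counts changed when 1 control was left out. Without control replicate 3 they were 0 with shLMO2-1, 0 with shLMO2-2 and 1 (GAPDH) for the mean of both. The log2 values were then no lower than with all libraries, at 0.35 and 0.42 for GAPDH, 0.29 and 0.24 for LDHA, and 0.22 for HK1 with shLMO2-1. The part of having fewer controls in these lost calls was not tested. Without control replicate 1 the counts were 1 (LDHA), 1 (GAPDH) and 2 (GAPDH and LDHA). Without control replicate 2 the shLMO2-2 count was 4. Leaving out 1 hairpin library gave 0 to 3 for shLMO2-1 (0 without its own replicate 2 or 3, 1 without its replicate 1 or shLMO2-2 replicate 1 or 2) and 0 to 1 for shLMO2-2 (0 without its own replicate 2 or 3, 1 without each other hairpin library).

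GAPDH, which oxidises glyceraldehyde-3-phosphate and yields NADH (chromosome 12, 6533927 to 6538374, plus strand), was the most abundant of the enzymes per kilobase, at 1705 ± 207 CPM per kb in the controls. It was at 2762, 3505 and 3325 CPM in the controls, 3726, 3989 and 4261 with shLMO2-1, and 3979, 4043 and 4556 with shLMO2-2. No hairpin library overlapped the controls, and control replicate 1 was the lowest of all 9. The log2 fold change was 0.32 (SE 0.088, adjusted p = 0.0468) with shLMO2-1, 0.39 (SE 0.088, adjusted p = 0.0214) with shLMO2-2 and 0.36 (SE 0.077, adjusted p = 0.0139) for the mean of both. Without control replicate 1 the mean was 0.25 (adjusted p = 0.0231), and the mean call was kept in every alternative at 0.05. For shLMO2-1 the call ended on leaving out control replicate 1 (0.0666) or 3 (0.0945), any of its own libraries (0.0604 to 0.149), or shLMO2-2 replicate 1 (0.0577) or 2 (0.0708). The shLMO2-1 call also ended with upper-quartile scaling (0.0613), with limma-voom (0.0521) and when only the groups compared were fitted (0.0794). For shLMO2-2 the call ended on leaving out control replicate 3 (0.0525) or its own replicate 2 (0.0585) or 3 (0.0844). GAPDH has 62 pseudogenes in the annotation, which took at most 0.00799% of their summed counts with GAPDH. AC006064.4, which shares exon bases with it, averaged 1.68, 2.14 and 1.78 CPM.

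LDHA, which turns pyruvate into lactate (chromosome 11, 18394388 to 18408425, plus strand), was at 783, 901 and 852 CPM in the controls, 991, 1036 and 1056 with shLMO2-1, and 957, 963 and 1060 with shLMO2-2. All hairpin libraries were above all controls. LDHA changed by 0.28 on the log2 scale (SE 0.064, adjusted p = 0.0225) with shLMO2-1, 0.23 (adjusted p = 0.0461) with shLMO2-2 and 0.26 (SE 0.056, adjusted p = 0.0142) for the mean of both. Without control replicate 3 the mean was also 0.26 but its adjusted p was 0.056, and without control replicate 1 it was 0.20 (adjusted p = 0.0341). With shLMO2-1 the call ended without control replicate 3 (0.0712) or its own replicate 2 (0.0772) or 3 (0.077). With shLMO2-2 it ended without control replicate 1 (0.0967) or 3 (0.115), or without any 1 of the hairpin libraries (0.0574 to 0.167). The shLMO2-2 call also ended with median-of-ratios (0.0501) or upper-quartile scaling (0.0547), or when only the groups compared were fitted (0.0937).

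TPI1, which interconverts the triose phosphates (chromosome 12, 6867119 to 6870948, plus strand), was called by edgeR in the mean of both hairpins only. It was at 139, 185 and 162 CPM in the controls, 195, 202 and 224 with shLMO2-1, and 186, 192 and 215 with shLMO2-2. The groups only just failed to overlap, at 185 and 186 CPM. The log2 fold change was 0.35 with shLMO2-1 (adjusted p = 0.057), 0.29 with shLMO2-2 (adjusted p = 0.105) and 0.32 for the mean of both (SE 0.088, adjusted p = 0.0388). That call ended on leaving out control replicate 1 (log2 0.21, adjusted p = 0.106) or 3 (0.118), shLMO2-1 replicate 2 (0.0694) or 3 (0.0744), or shLMO2-2 replicate 2 (0.0678) or 3 (0.0778). Without control replicate 2 both single-hairpin comparisons were called (0.0233 and 0.0353). The shLMO2-1 comparison was also called by DESeq2 (0.0174), with no filter (0.00192), with at least 10 counts in every library (0.0487), with a replicate block (0.0107) and with GC and length trends removed (0.0115), and the shLMO2-2 comparison with no filter (0.0135) and with the block (0.025). SPSB2, which shares exon bases with TPI1, averaged 4.91, 4.46 and 5.13 CPM.

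HK1, the housekeeping hexokinase that traps glucose in the cell (chromosome 10, 69269984 to 69401884, plus strand), was called with shLMO2-1 only. It was at 154, 159 and 157 CPM in the controls, 183, 182 and 182 with shLMO2-1, and 152, 156 and 173 with shLMO2-2. The shLMO2-1 libraries stood above the rest, while shLMO2-2 overlapped the controls. HK1 changed by 0.22 on the log2 scale with shLMO2-1 (SE 0.061, adjusted p = 0.0483) and 0.04 with shLMO2-2 (adjusted p = 0.761). The shLMO2-1 call was lost in 14 of 20 alternatives. These included leaving out any library but shLMO2-2 replicate 3 (adjusted p 0.0585 to 0.131). It was also lost with median-of-ratios scaling (0.0521), upper-quartile scaling (0.0587), library totals alone (0.0609) and no filter (0.0862), and when only the groups compared were fitted (0.074). The difference between the hairpins was -0.19 (95% interval -0.32 to -0.05), with an adjusted p of 0.276. HK2, the hexokinase that HIF and growth signals induce, was lower than HK1 per kilobase (9.46 ± 1.96 against 43.4 ± 0.704 CPM per kb in the controls) and had a mean log2 fold change of -0.02 (95% interval -0.28 to 0.23).

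The other enzymes were not called. In order of control level per kilobase they were ALDOA (846 CPM per kb), ENO1 (732), PKM (462), GPI (157), PGAM1 (137), PGK1 (134), PFKL (85.6), PFKP (71.1) and ENO2 (3.12); GPI, PGAM1, PGK1 and TPI1 (132) lay close together. Their mean log2 fold changes ran from -0.01 for ENO2 to 0.19 for PFKL, the liver-type phosphofructokinase (adjusted p = 0.0629). PFKL was called by DESeq2 (adjusted p = 0.0345), with no filter (0.049), with a replicate block (0.0254) and without control replicate 2 (0.0371). Its log2 value was 0.14 (0.178) without control replicate 1 and 0.08 (0.29) with GC and length trends removed. PFKL was at 249 ± 18.2, 276 ± 15.7 and 295 ± 15 CPM (SD, n = 3). PKM, which makes pyruvate, was at 1255 ± 125, 1302 ± 78 and 1254 ± 62.3 CPM, and ENO1, the enolase before it, at 1716 ± 191, 1706 ± 110 and 1763 ± 137. PGK1, often counted as a HIF target as well, was at 654 ± 74.2, 697 ± 46.5 and 724 ± 37.6 CPM. ALDOC, the brain-type aldolase, had 0 to 13 counts per library and was not tested.

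Between the hairpins, none of the 39 genes was called, where 0.768% of all genes were. DESeq2, limma-voom and the other alternatives also called none. The genes with an unadjusted p under 0.05 in edgeR's test were BNIP3, MXI1, HK1 and ENO2. The share of all genes under that threshold was not counted, so their number is not read as a result. ENO2, the neuronal enolase, gave -0.49 for shLMO2-2 against shLMO2-1 (95% interval -0.84 to -0.14, adjusted p = 0.264). Its libraries were at 8.81, 8 and 9.62 CPM in the controls, 12.6, 9.61 and 8.84 with shLMO2-1, and 8.09, 6.45 and 7.55 with shLMO2-2. BNIP3 gave -0.27 (95% interval -0.47 to -0.07, adjusted p = 0.279).

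Libraries differed in their trends with GC content and transcript length. The part of these in the glycolytic values was tested only by removing both trends together. Control replicate 1 was the lowest of all 9 libraries for 10 of the 14 enzymes (71.4%) and for 8 of the 25 HIF targets (32%), against 23.2% of all genes tested. The slope of log2 abundance on transcript GC was -0.118 per 10 points of GC percent in control replicate 1, -0.023 and -0.02 in the other controls, and 0.008 to 0.061 in the hairpin libraries. Median transcript GC was 55.4% for the enzymes, 50.2% for the HIF targets and 49.4% for all genes tested. With GC and length trends removed from every library, the mean log2 fold change was 0.28 for GAPDH (adjusted p = 0.00197), 0.32 for LDHA (0.00246), 0.24 for TPI1 (0.0139), 1.45 for CA9 and 0.45 for DDIT4, all still called, and HK1 with shLMO2-1 was lost (0.0575). The median over the 14 enzymes went from 0.098 to 0.049 for the mean of both hairpins, from 0.107 to 0.071 with shLMO2-1 and from 0.074 to 0.064 with shLMO2-2. The slope per doubling of transcript length was 0.082, -0.049 and 0.008 in the controls and -0.063 to 0.053 in the hairpin libraries. Median transcript length was 2686 bases for the enzymes, 3586 for the HIF targets and 2852 for all genes tested. Control replicate 2 had about the GC slope of control replicate 3, a lower length slope and a higher glycolytic median. The part of length apart from GC was not tested. The median over the enzymes in each library, relative to the mean of the controls, was -0.131, 0.12 and 0.015 in the controls, 0.085, 0.092 and 0.159 with shLMO2-1, and 0.068, 0.036 and 0.187 with shLMO2-2, so the groups overlapped for the list taken as a whole.

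**Figure D4:**
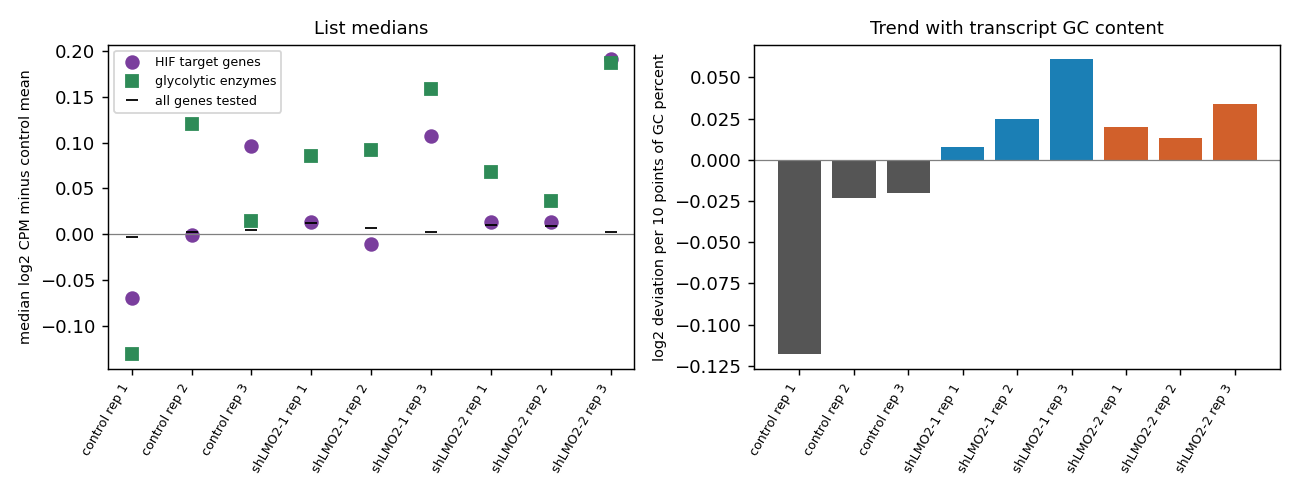
Left, the median log2 CPM of each list in each library relative to the control mean; right, the slope of log2 abundance on transcript GC content in each library, per 10 points of GC percent. Control replicate 1 has the lowest glycolytic median at -0.131 and the steepest slope at -0.118, and control replicate 2 has a glycolytic median of 0.12, above 4 of the 6 hairpin libraries.

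Few of the genes that control HIF itself passed the test. Of 15 regulators listed, 14 were tested, and in the mean of both hairpins 1 was called, lower (5.93% of all genes tested were called lower), and none higher. HIF1A was at 131 ± 5.86, 140 ± 3.04 and 141 ± 14.7 CPM (SD, n = 3) and EPAS1 at 226 ± 36.4, 179 ± 10.5 and 201 ± 12.3, and neither was called. ARNT averaged 48.6, 43.2 and 46.4 CPM and VHL 16.7, 16.8 and 15.8. The regulator that fell was CITED2, which competes with HIF alpha for the coactivators CREBBP and EP300. It was at 231, 257 and 261 CPM in the controls, 172, 193 and 208 with shLMO2-1, and 154, 168 and 180 with shLMO2-2. Each hairpin library was below each control, as was the case for 8.59% of all genes. The log2 fold change was -0.39 with shLMO2-1 (adjusted p = 0.0193), -0.58 with shLMO2-2 (adjusted p = 0.0028) and -0.48 for the mean of both (SE 0.073, adjusted p = 0.00217). With shLMO2-1 the call ended without control replicate 2 (0.054) or 3 (0.0749), or its own replicate 1 (0.0723) or 2 (0.0619).

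Of 24 further HIF targets listed outside the 41, 22 were tested, and 5 rose and none fell in the mean of both hairpins. This was 22.7%, against 12.4% of all genes called and 6.47% called higher. They were ERO1A, an oxidase of protein folding (log2 0.33, adjusted p = 0.01), LOX, which crosslinks collagen (0.43, adjusted p = 0.0157), TMEM45A, a membrane protein (0.43, adjusted p = 0.00212), ZNF395, a zinc finger protein (0.34, adjusted p = 0.00324), and PGM1, which links glycogen to glycolysis (0.33, adjusted p = 0.0145). LOX was lost without control replicate 3 (adjusted p = 0.075). EPO, the hormone through which HIF was found, and CXCR4 were the 2 that were not tested. Among 21 other glycolytic isoforms, kinases and lactate exporters, 11 were tested, and 1 was called (9.09%, against 12.4% of all genes), BPGM, which makes 2,3-bisphosphoglycerate and fell by 0.38 on the log2 scale (adjusted p = 0.00482).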

How the data were processed

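The deposited table gives 1 value per gene and library. Per the submitters' processing notes the tools were Salmon 0.12 and DESeq2 1.22.2 and the genome build GRCh38.p12, with no role or order given; the values are estimated counts that the authors deposited without scaling, of which 11.67 to 12.81% per library were not whole and were rounded here. Per the labels' protocols, RNA was enriched by poly(A) selection. Counting by strand is not given in the sources used here, and 24 of the 41 genes share exon bases with another gene.

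Libraries were grouped by the plasmid in their labels, and none was left out. edgeR 4.0.16 (R 4.3.3) was used with TMM scaling, filterByExpr (minimum count 10, minimum total 15) and the quasi-likelihood test over all 9 libraries with group as the only term; 14708 genes passed and LMO2 was added, so that 14709 were tested, which held 99.91% of counts. P-values were adjusted by Benjamini-Hochberg over all of these. The mean of both hairpins is the average of the hairpin groups against the control. Levels are CPM on TMM-scaled totals, with SD over 3 libraries, and 95% intervals use the t quantile at edgeR's degrees of freedom. Levels per kilobase divide by the longest principal transcript in GENCODE 29, which also gives positions, and are a rough scale. The HIF and glycolysis genes, and the lists beside them, were chosen with earlier results of these data known. Values in every library are given for genes called with both hairpins and for others that a result turns on; other called genes are given by fold change and the rest by means or ranges. The steps were tested on simulated data. Alternatives were limma-voom (limma 3.58.1), DESeq2 1.42.0, other scalings and filters, pseudogene counts added, a threshold of 0.01, a replicate term, fits on the compared groups, each library left out and, chosen after seeing the data, GC and length trends removed. Replicates of a group differed beyond sampling noise (chi-square per gene 5.18 to 29.5 over 11937 genes). One marker gene is not reported here.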

Additional observations from a re-analysis of the deposited data

Results flagged for a closer look

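TMEM45A, a membrane protein among the further HIF targets, differed between the hairpins by the test of that difference. It was at 58.4, 57.6 and 51.9 CPM in the controls, 88.2, 83.4 and 88.8 with shLMO2-1, and 64.8, 61.6 and 69.4 with shLMO2-2, so the groups did not overlap. The shLMO2-2 minus shLMO2-1 difference was -0.41 on the log2 scale (SE 0.072, edgeR adjusted p = 0.0294). Against the control the log2 fold change was 0.63 with shLMO2-1 (adjusted p = 0.00058) and 0.22 with shLMO2-2 (adjusted p = 0.0839). The difference was lost when any 1 of the 6 hairpin libraries was left out (adjusted p 0.0561 to 0.146), and its adjusted p ran from 0.00012 to 0.146 over all alternatives.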

How the results depend on the processing

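CA9 kept its direction and its call in both hairpins under every alternative run, as did CA2, and so did DDIT4, GAPDH and CITED2 in the mean of both hairpins other than at a threshold of 0.01 (CITED2 there too). HK1 with shLMO2-2, which was not called, turned to -0.01 with library totals alone and to -0.03 without shLMO2-2 replicate 3 (-0.03 to 0.06 over the libraries left out). The count of HIF targets called was 1 with shLMO2-1 when only the groups compared were fitted, and 1 in all 3 comparisons at a threshold of 0.01. The count of enzymes with shLMO2-1 was 1 with upper-quartile scaling or only the groups compared, and with shLMO2-2 it was 1 with median-of-ratios or upper-quartile scaling or only the groups compared and 5 with no filter; at 0.01 it was 0 in all 3. The mean of both needs all groups and has no value for the groups compared alone. With the replicate number as a block, HIF targets called were 4, 4 and 6 for shLMO2-1, shLMO2-2 and the mean, and enzymes 4, 4 and 4. Nothing in the labels says that a number pairs libraries. Deviations of same-numbered libraries correlated at 0.14 to 0.296 for replicates 1 and 3 and at -0.0635 to 0.0518 for replicate 2. Libraries numbered 1 and 3 in different groups correlated at -0.308 to -0.153. The 3 deviations of a group sum to 0, so a replicate 2 between its fellows can lie near 0 with or without pairing. These values therefore cannot decide whether a number pairs libraries. A shared source for same-numbered libraries was not tested. LMO2 with shLMO2-1 became a call with no filter (-2.43, adjusted p = 0.0253) and with the replicate block (-2.30, 0.0417). LMO2 with shLMO2-2 was lost with limma-voom (-2.67, 0.0928), only the groups compared (-3.03, 0.062) and at 0.01 (-3.02), as was the mean at 0.01 (-2.73). Leaving out each library gave 1 to 3, 1 to 2 and 2 to 3 HIF targets and 0 to 3, 0 to 4 and 1 to 4 enzymes for shLMO2-1, shLMO2-2 and the mean, and 0 between the hairpins. The HIF medians were then 0.004 to 0.066, -0.001 to 0.094, 0.011 to 0.097 and, between hairpins, -0.012 to 0.064; the enzyme medians 0.103 to 0.17, 0.031 to 0.14, 0.057 to 0.132 and -0.053 to 0.03. LMO2 was then -3.47 to -1.74, -3.48 to -2.32 and -3.25 to -2.03. The cause of these shifts was not tested. Depth limits LMO2, ANGPTL4, ALDOC, CA12 and SLC2A3, which had few counts.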
